A study of Mus musculus with 8 samples.

Results

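Open chromatin in E47-ER-transduced group 2 innate lymphoid cells (ILC2s) was compared between 4 and 16 h of 4-hydroxytamoxifen, by the sites called by ATAC-seq at one time and not at the other. E47 is a basic helix-loop-helix transcription factor made from the Tcf3 gene, and E proteins of its family bind the E-box, CANNTG, as dimers and drive early T cell development. Id proteins such as Id1 pair with E proteins and keep them off DNA. ILC2s are tissue lymphocytes that secrete interleukins 5 and 13, and loss of E protein activity in thymic progenitors is known to favour them over T cells. In E47-ER, E47 is joined to the hormone-binding part of the oestrogen receptor, so the fusion acts in the nucleus once 4-hydroxytamoxifen is added. ATAC-seq marks accessible DNA by where the Tn5 transposase inserts.

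All 8 samples were ILC2s from the thymus of C57BL/6 plck-Id1 mice. In these mice the proximal Lck promoter, active in developing thymocytes, drives an Id1 transgene. E47-ER cells and controls both carried the transgene, and the level of Id1 in the cultured cells is not given. The cells were transduced with a retrovirus for E47-ER and GFP or for GFP alone, sorted for GFP, grown in cytokines and given 4-hydroxytamoxifen for 4 or 16 h, with 2 samples in each of 4 groups (E47 4 h, E47 16 h, GFP 4 h and GFP 16 h). Both GFP groups also received the drug, and no untreated group was used. The titles and the transduction labels give these groups, whereas the free-text descriptions name the vector by replicate number, with the empty vector for replicate 1 and E47-ER for replicate 2 in all groups. The titles were followed. If the descriptions held instead, each list would mix both vectors, and the lists cannot settle this. Whether a pair of samples represents separate cultures or animals is not given. The peak lists used here give 1 list for each group and no value per sample, so no difference below was tested against replicate spread, and the intervals given are exact binomial 95% intervals that cover counting error alone.

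A region was a set of overlapping peak lines of one list, and it was called 4 h-only or 16 h-only where it did not overlap any region of the E47 list of the other time by 1 bp or more. Of 49811 E47 regions at 4 h, 12601 (25.3%) were 4 h-only. Of 40649 E47 regions at 16 h, 3141 (7.73%) were 16 h-only. These 15742 regions, of 90460 in the E47 lists and 185971 in all 4 lists, are described here. Coordinates are those of mm10, the same assembly as GRCm38.p6. Absence from a list means that no peak was called, and such DNA may still be open below the calling threshold. A region carries the name of the nearest protein-coding gene within 100 kb of its summit, which marks position and is not a regulatory assignment.

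Few promoters lay under a time-only region. Windows from 250 bases before to 50 bases after a listed RefSeq start (GRCm38.p6) overlapped a 4 h-only region by 1 bp or more (lay under it) in 392 cases, for 357 genes, and under a 16 h-only region in 126 cases, for 118 genes, against 10587 windows under a region called at both times. The 250 bases before the start are printed below for 4 genes of the lists fixed for this comparison whose start lay under a 4 h-only region. These are Id4, an Id family inhibitor (chr13:48260866-48261115, + strand), Il5, the eosinophil growth factor of ILC2s (chr11:53720544-53720793, + strand), Ctla4, an inhibitory receptor of activated lymphocytes (chr1:60908775-60909024, + strand), and Lck, the T cell kinase whose proximal promoter drives the transgene (chr4:129573642-129573891, - strand). The Lck window is at the outermost listed start of the gene, not at its downstream start. Thsd7a (chr6:12749254-12749503, - strand) had the strongest 16 h-only region over a listed start. For Tcf7, which encodes TCF-1, a factor of early T cells and innate lymphoid progenitors, 30 bases around the E-box of its window are shown (chr11:52283156-52283185, - strand), because it was the one list gene with a window under a 16 h-only region. That overlap is 139 bp, the listed start itself is not covered, and the window lies inside the gene, downstream of its outermost end. Capitals mark each E-box, CANNTG, and the genes were chosen after their values were seen.
Id4: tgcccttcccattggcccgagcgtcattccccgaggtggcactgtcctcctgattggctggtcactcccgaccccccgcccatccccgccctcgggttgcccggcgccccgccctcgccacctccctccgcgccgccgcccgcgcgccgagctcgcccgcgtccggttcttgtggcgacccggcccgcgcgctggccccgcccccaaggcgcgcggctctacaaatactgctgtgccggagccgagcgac
Il5: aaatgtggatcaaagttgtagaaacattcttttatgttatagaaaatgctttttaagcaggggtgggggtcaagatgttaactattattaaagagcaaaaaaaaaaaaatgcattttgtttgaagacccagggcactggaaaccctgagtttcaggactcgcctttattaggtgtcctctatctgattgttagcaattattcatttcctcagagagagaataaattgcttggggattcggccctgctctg
Ctla4: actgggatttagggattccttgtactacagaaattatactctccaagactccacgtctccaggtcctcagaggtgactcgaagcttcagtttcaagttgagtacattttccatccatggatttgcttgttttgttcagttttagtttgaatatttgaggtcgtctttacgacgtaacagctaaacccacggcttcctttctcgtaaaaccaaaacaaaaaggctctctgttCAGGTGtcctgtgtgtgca
Lck: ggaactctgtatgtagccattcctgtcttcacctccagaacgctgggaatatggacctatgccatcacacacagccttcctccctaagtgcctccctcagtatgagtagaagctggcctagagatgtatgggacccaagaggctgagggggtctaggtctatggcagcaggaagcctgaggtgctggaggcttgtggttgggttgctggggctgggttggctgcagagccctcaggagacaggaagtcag
Thsd7a: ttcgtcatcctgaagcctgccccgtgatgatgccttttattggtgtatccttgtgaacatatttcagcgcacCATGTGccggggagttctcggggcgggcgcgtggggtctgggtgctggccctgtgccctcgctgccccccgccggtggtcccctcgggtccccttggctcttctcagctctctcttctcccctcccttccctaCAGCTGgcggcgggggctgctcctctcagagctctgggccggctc
Tcf7: cgcaccatgccgCAGCTGgactcgggcggg

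The printed Id4, Il5 and Lck sequences hold no E-box. Ctla4 holds CAGGTG, Thsd7a holds CATGTG and CAGCTG, and the Tcf7 stretch holds CAGCTG. A match describes letters, not a bound site. Over the full windows of 300 bases, searched on both strands, CANNTG was present in 69.9% of the 392 windows under 4 h-only regions and in 69.0% of the 126 under 16 h-only regions. The share was 61.2% under regions called at both times and 69.0% over all 21263 windows. CAGGTG (read as CACCTG on the other strand), one form of the E-box, was in 25.3% (21.0 to 29.9) of the 4 h-only windows and 23.0% (16.0 to 31.4) of the 16 h-only windows, beside 17.1% for shared regions and 19.7% for all. CAGCTG, another form, was in 18.9% and 19.0%, beside 13.7% and 15.6%. The 4 h-only and 16 h-only windows thus differed by at most 2.24 percentage points in these 3 shares, within their intervals. CCGGAA, the core bound by ETS factors, was in 9.95% of 4 h-only and 10.3% of 16 h-only windows, against 31.5% under shared regions and 18.7% over all windows. Median GC content was 60.7%, 60.3%, 62.3% and 56.3% in the same order.

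The Id4 start region was among the stronger ones. It covered chr13:48260759-48261216, had a fold enrichment over background of 10.9 in the E47 4 h list, and was called with 9.50-fold in GFP 4 h and 8.32-fold in GFP 16 h. Enrichments are the authors' values, each set within its own list, and were not compared as levels. The Il5 start region (chr11:53720673-53720951, 4.49-fold) was called in GFP 16 h (3.55-fold) and not in GFP 4 h. The Ctla4 region (chr1:60908804-60909070, 4.63-fold) and the Lck region (chr4:129573561-129573773, 4.27-fold) were in neither GFP list. Both were weak, at percentiles 9.85 and 4.35 of the E47 4 h list, counted from its weakest region. In the weakest decile of that list, 55.8% of 4 h-only and 40.0% of shared regions were in neither GFP list. Their absence from the GFP lists is thus common at this strength, and a link to E47-ER was not tested. The Thsd7a region (chr6:12748518-12749577, 10.1-fold) was called in both GFP lists. Within 1000 bp of the Id4 and Il5 start regions lay another region that was called at E47 16 h.

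Time-only regions were the weak end of each list. Strength here is the rank of a region by its highest −log10 p, given as a percentile of its own list with 100 the strongest. The 4 h-only regions had a median strength of 16.5, against 62.6 for regions of the 4 h list called at both times. The 16 h-only regions had a median of 10.1, against 53.9. They were also narrower, with a median of 228 bp against 492 bp at 4 h and 217 bp against 444 bp at 16 h. A single summit was found in 54.5% of 4 h-only and 60.4% of 16 h-only regions, against 24.9% and 28.5% of shared regions. Together the 4 h-only regions covered 3.54 Mb of the 24.4 Mb in the 4 h list, and the 16 h-only regions 0.833 Mb of 20.6 Mb.

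By deciles of the list from weakest (1) to strongest (10), the 4 h-only share fell from 82.9% through 66.3%, 49.5%, 31.2%, 15.9% and 6.28% to 0.903% in decile 7 and to 0 in the last 3. The 16 h-only share fell from 38.3% through 20.7%, 11.3%, 5.02% and 1.57% to 0.271% in decile 6 and 0.0246% in decile 7, with 0 beyond. At the same rank the 4 h list therefore held more time-only regions in each of the 7 deciles that held any. The GFP lists had the opposite order of times: 3421 of 42665 GFP 4 h regions (8.02%) and 13081 of 52846 GFP 16 h regions (24.8%) were called at one time alone. In each vector the longer list had the larger share. This follows from matching by overlap, where the 2 time-only counts differ by about the difference in list length. List length and time cannot be told apart in the full lists.

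**Figure D1:**
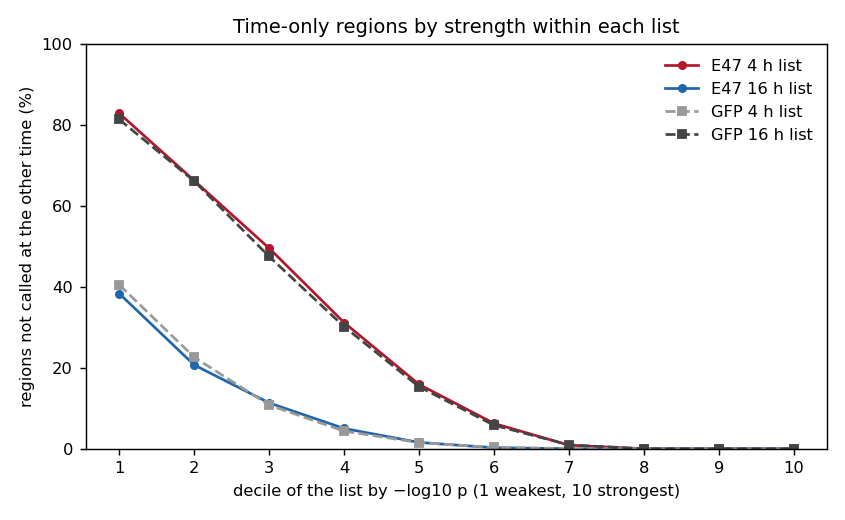
Share of regions not called at the other time of the same vector (y axis, percent) in each decile of a list by −log10 p (x axis, weakest to strongest), for the 4 lists. The E47 4 h and GFP 16 h curves start near 80%, the E47 16 h and GFP 4 h curves near 40%, and all reach 0 in the strongest 3 deciles.

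With both E47 lists held to their strongest 40649 regions, which leaves the 16 h list whole and drops the weak end of the 4 h list, 5652 (13.9%) were 4 h-only and 5080 (12.5%) were 16 h-only. The ratio of 4 h-only to 16 h-only regions thus went from 4.01 in the full lists to 1.11 at equal length. Most shared regions overlap a single region of the other list, so lists of equal length must give nearly equal counts. The ratio near 1 therefore follows from the cut, and no conclusion about time is drawn from it. Read depth per library was not in the files used here.

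Strong time-only regions were a small group. Above the median of their list lay 356 4 h-only regions, 1.43% of the 24880 such regions at 4 h, and 12 16 h-only regions, 0.059% of the 20325 such regions at 16 h. None was in the strongest 25% of either list, and the strongest stood at 68.6 and 60.8.

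Of the 356 strong 4 h-only regions, 311 (87.4%) were called in both GFP lists, 32 in GFP 16 h alone, 7 in GFP 4 h alone and 6 in neither. These 311 were called in 3 of the 4 lists and missing from E47 16 h. The strongest 10 lay near Edaradd, Ccdc150, Cdk17, Wdr17, Lpin1, Mysm1, Med12l, Rxfp1, Prag1 and Adam10, at strengths of 64.4 to 68.6, and each was in both GFP lists. Beside Edaradd, an adaptor of the ectodysplasin receptor, chr13:12468530-12468977 had an enrichment of 15.9-fold in E47 4 h, 17.4-fold in GFP 4 h and 17.6-fold in GFP 16 h. Inside Adam10, the sheddase that cleaves Notch receptors, chr9:70688242-70688684 had 16.0-fold, 19.4-fold and 21.0-fold in the same lists. Inside Lpin1, a phosphatidate phosphatase, chr12:16583208-16583614 had 9.50-fold, 7.91-fold and 9.53-fold. In these 3 cases the site stood in the middle or upper part of all 3 lists and was missing from E47 16 h, although an E47 16 h region lay within 1000 bp of the Lpin1 site.

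The 12 strong 16 h-only regions split otherwise, with 4 in both GFP lists, 2 in GFP 4 h alone, 1 in GFP 16 h alone and 5 in neither. Regions near Nme7, Dctd, Zcwpw2 and Prdm1 were among the 5. The region inside Nme7 (chr1:164426307-164426611) had 13.4-fold enrichment and a strength of 58.7. The region near Prdm1, which encodes the repressor Blimp-1, was 87.2 kb outside the gene (chr10:44615637-44615939, 12.2-fold, strength 50.7). Near Nfil3, a factor needed for innate lymphoid progenitors, chr13:52998578-52998957 was called with 9.09-fold at E47 16 h, 6.01-fold at GFP 4 h and 7.08-fold at GFP 16 h, and not at E47 4 h. Further strong 16 h-only regions lay near Dnm3, Opa1, Ghitm and Msi2. In the GFP lists, 16 strong 4 h-only regions were found (12 in both E47 lists) and 359 strong 16 h-only regions, of which 192 were in both E47 lists and 64 in neither.

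The GFP lists, with groups taken by title, show which time-only sites were also called in cells given GFP alone. Of all 12601 4 h-only regions, 4372 (34.7%) were called in both GFP lists, 879 (6.98%) in GFP 4 h alone, 2964 (23.5%) in GFP 16 h alone and 4386 (34.8%, interval 34.0 to 35.6) in neither. Of the 3141 16 h-only regions, 815 (25.9%) were in both, 233 (7.42%) in GFP 4 h alone, 705 (22.4%) in GFP 16 h alone and 1388 (44.2%, interval 42.4 to 45.9) in neither. Among shared regions of the 4 h list 83.8% were in both GFP lists and 5.91% in neither. The share in neither list was higher for 16 h-only than for 4 h-only regions. Its size depended on list length, with 18.0% and 41.0% at equal length by −log10 p and 27.5% and 30.2% at equal length by fold.

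**Figure D2:**
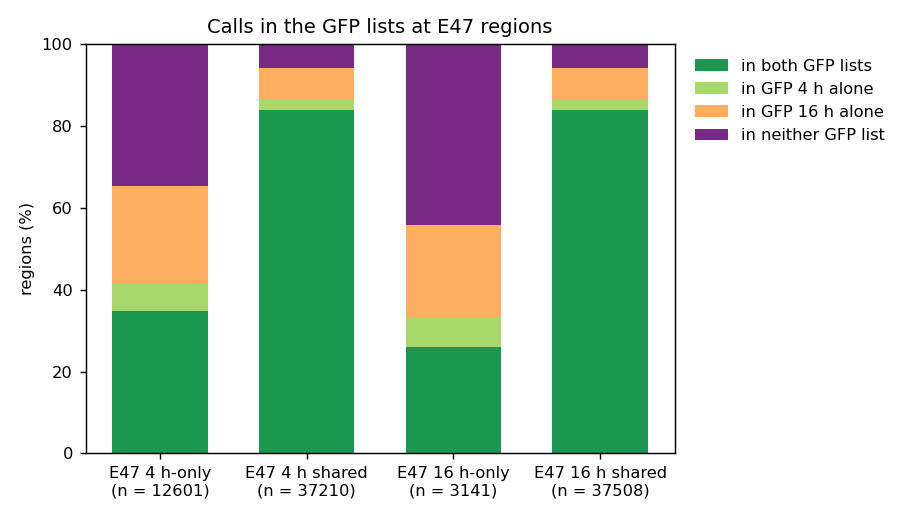
Share of E47 regions (y axis, percent) called in both GFP lists, in one, or in neither, for 4 h-only, 16 h-only and shared regions (bars; n below each). Neither-list shares are 34.8% and 44.2% for time-only regions and under 6% for shared regions.

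Strength moved with this share. In decile 1 55.8% of 4 h-only and 54.0% of 16 h-only regions were in neither GFP list. The shares then fell to 36.7% and 39.7% in decile 2, 24.6% and 30.8% in decile 3, 13.6% and 25% in decile 4 and 6.40% and 23.4% in decile 5. Regions of the 16 h list called at both times had 25.9%, 17.5%, 10.6%, 7.05% and 4.62% in the same deciles, and those of the 4 h list had 40.0%, 29.1%, 20.1%, 12.2% and 5.96%. In deciles 1 to 3, which hold most 4 h-only regions, these were 15.7, 7.61 and 4.50 percentage points above shared regions of like strength. The 16 h-only regions were 28.1, 22.2 and 20.2 points above theirs. In deciles 4 and 5 the 4 h-only regions were within 1.36 points of shared regions. There the 16 h-only regions, 204 and 64 in number, were 18.0 and 18.8 points above theirs. Decile 6 of the 16 h list held 11 such regions and is not read. Seen from the other side, 66.6% of E47 4 h regions that were in neither GFP list were 4 h-only, against 12.3% of those in both. At 16 h these shares were 38.7% and 2.52%. The GFP lists, set against the E47 lists, also held an excess over shared regions. Of GFP 16 h-only regions, 41.4% in decile 3 and 25.8% in decile 5 were in neither E47 list. Shared regions of that list had 23.5% and 10.4%. GFP 4 h-only regions had 22.8% and 6.15%, beside 15.9% and 4.38%. Over all deciles, 49.3% of GFP 16 h-only and 39.8% of GFP 4 h-only regions were in neither E47 list. The excess was thus not confined to E47-ER cells.

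The 4 h-only regions that were also called in GFP 4 h (5251) were found again in GFP 16 h in 83.3% of cases, against 92.0% of all GFP 4 h regions. The 16 h-only regions that were called in GFP 16 h (1520) were found in GFP 4 h in 53.6%, against 75.2% of all GFP 16 h regions. Absence from one E47 list went with a lower rate of calling at the matching GFP time in both directions. The rate was lower at the other GFP time as well. Of 4 h-only regions called in GFP 16 h, 59.6% were in GFP 4 h, against 75.2% of all. Of 16 h-only regions called in GFP 4 h, 77.8% were in GFP 16 h, against 92.0% of all. The lower rate was thus not tied to the matching time, and the time-only regions were also weaker than the rest.

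Time-only regions lay away from gene starts. Within 1 kb of a gene start were 14.8% of 4 h-only regions (1869) and 14.9% of 16 h-only regions (467), against 36.7% and 36.6% of shared regions. These values depend on the processing, being 7.27% and 26.0% at equal length by fold, 8.52% and 9.53% with lines merged across 200 bp, and 6.46% and 7.39% without regions that had one of the other time within 1000 bp. Inside genes and further from a start were 49.2% and 47.6%, against 35.5% and 35.6%, and outside genes 36.0% and 37.6%, against 27.7% and 27.8%. Strong shared regions are mostly gene starts, with 88.0% within 1 kb in decile 10 of the 4 h list. In decile 1 the shares were 15.2% for 4 h-only and 22.0% for shared regions, and at 16 h 15.3% and 17.6%. Much of the gap between time-only and shared regions thus moved with strength, and a smaller gap was left within deciles.

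**Figure D3:**
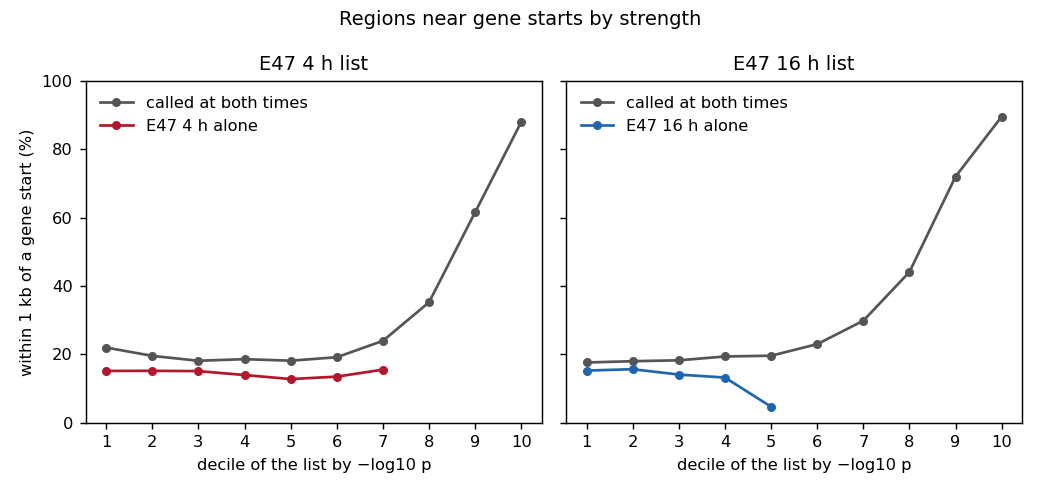
Share of regions within 1 kb of a gene start (y axis, percent) by decile of the list (x axis) for regions called at one time and at both, at 4 h (left) and 16 h (right). Deciles with fewer than 20 time-only regions are not drawn. Time-only points lie below the shared line in every decile drawn, from 12.8% to 15.6% at 4 h and from 4.69% to 15.7% at 16 h.

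Near gene starts a time-only region usually lay close to a region of the other time. Of the 1869 4 h-only regions near a start, 1298 (69.4%) had a 16 h region within 1000 bp, and of the 467 16 h-only regions 318 (68.1%) had a 4 h region as close. Elsewhere these shares were 22.9% and 30.2%. The start regions were narrow, with medians of 174 bp and 171 bp. Of the 5 strongest near a start at 4 h, those of Ccdc150, Wdr17 and Pgf (placental growth factor) had no 16 h region within 1000 bp, and those of Brix1 and Tbce had one. At 16 h, that of Papln stood alone, and those of Icam5, S100a4 and Zfp53 had a 4 h region close by. By chromosome, leaving out Y with its 5 and 4 regions, the 4 h-only share ran from 22.9% on chromosome 17 to 26.7% on chromosome 16, and the 16 h-only share from 6.12% on chromosome 19 to 8.54% on chromosome 12.

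Time-only regions were spread over many genes. Of 14371 genes named by a 4 h region, 6890 (47.9%) had a 4 h-only region, and of 13637 named by a 16 h region, 2472 (18.1%) had a 16 h-only region. Both kinds were found at 1513 genes. At 1005 genes regions were named at 4 h and none at 16 h, and at 271 genes at 16 h and none at 4 h. More 16 h-only than 4 h-only regions were found at 1061 genes, and the reverse at 6162.

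The gene with the most 4 h-only regions was Etv6, an ETS family repressor of blood cells, with 15 of 30 regions at 4 h and 2 of 18 at 16 h. Of the 15, 5 were in both GFP lists, 7 in GFP 16 h alone and 3 in neither, and their strength ran from 4.23 to 33.1. GFP lists held 19 Etv6 regions at 4 h and 32 at 16 h, so the count went down with time in E47-ER cells and up in GFP cells, as the whole lists did. Fli1, another ETS factor, had 11 of 26 4 h regions and 0 of 15 16 h regions called at one time alone. Its strongest, inside the gene at chr9:32486702-32487043, had 9.13-fold enrichment at E47 4 h, 8.54-fold at GFP 4 h and 10.3-fold at GFP 16 h. Rapgef2 had 14 of 35, Zmiz1 13 of 41, Akap13 12 of 46, Slc24a3 11 of 29, Ankrd44 11 of 27 and Tg 11 of 20. Genes with many regions have more chances of a high count.

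The most 16 h-only regions lay at Clec16a, with 6 of 30 (5 of the 6 in neither GFP list), Inpp4b with 5 of 21 and Atxn1 with 5 of 22. Rbms1, Snx5, Ppm1h, Zfp516 and Mgat5 had 4 each, of 26, 18, 27, 23 and 23. Snx5 had no 4 h-only region among 14. Mgat5, a glycosyltransferase that dampens T cell receptor signalling, had 8 of 28 4 h-only regions as well.

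Gene lists give the members' biology against the share over all genes, which was 25% (11956 of 47812) for 4 h-only and 7.61% (2976 of 39121) for 16 h-only regions. The 22 lists were read as counts. Of their 44 shares, 2 had an interval that missed the share of all genes, both at 4 h and both below it.

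One was the list of E protein target genes, with 52 of 271 regions 4 h-only (19.2%, interval 14.7 to 24.4). At 16 h it had 14 of 234 (5.98%). At equal list length its 4 h-only share was 11.7%, beside 13.7% of all genes, and the interval then held that value. It still missed the share of all genes with regions within 20 kb of a gene (16.7%, beside 24.5%) or inside genes (18.2%, beside 25.3%). Tgfbr2, the type II TGF-beta receptor, had 9 of 31 4 h regions and 0 of 21 16 h regions at one time alone. Of its 9, 3 were in both GFP lists, 2 in GFP 16 h alone and 4 in neither, and they reached a strength of 36.3. Ets1, an ETS factor of lymphocytes, had 8 of 24 and 2 of 19, and Cdk6, a cell cycle kinase, 4 of 29 and 0 of 27. All 5 4 h and 5 16 h regions named for Dntt, the template-free polymerase of antigen receptor joining, were shared.

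Tcf7 went the other way. None of its 5 regions at 4 h was 4 h-only, and 3 of its 8 at 16 h were 16 h-only. Equal list length gave the same counts. That cut drops weak 4 h regions alone, so it could not remove a 16 h-only region or add a 4 h-only one. No support is drawn from it. All 3 were in neither GFP list. One lay inside the gene (chr11:52268185-52268830, 6.63-fold, strength 23.6), one over its upstream end and the E-box window printed above (chr11:52283126-52283505, 4.34-fold, strength 0.504), and one 30.8 kb outside (chr11:52314042-52314660, 5.74-fold, strength 15.3). The region at the gene's end was thus close to the weakest in its list. The 3 regions lay in deciles 1 to 3 of the 16 h list. There 54.0%, 39.7% and 30.8% of 16 h-only regions were in neither GFP list, beside 25.9%, 17.5% and 10.6% of shared regions. Absence from the GFP lists was thus common among 16 h-only regions of this strength, and a link to E47-ER was not tested. A further Tcf7 region, chr11:52318401-52318828, was called at both E47 times (9.59-fold and 8.89-fold) and in neither GFP list. Tcf7 was singled out after its values were seen.

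**Figure D4:**
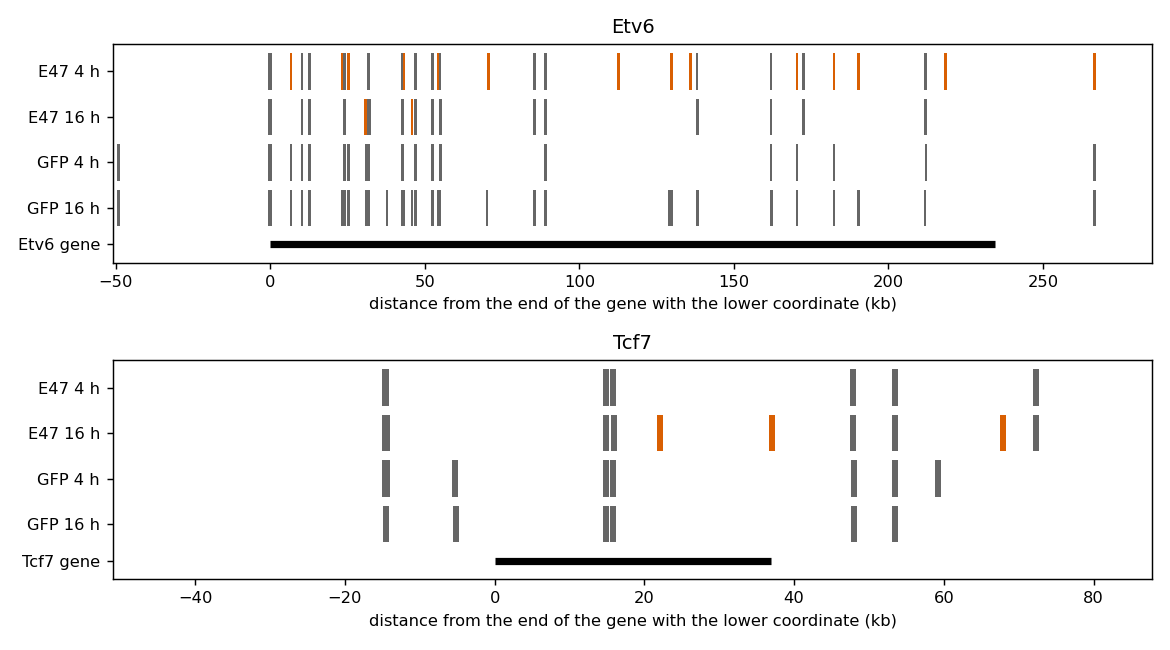
Called regions along Etv6 and Tcf7 with 50 kb on each side, by distance from the lower-coordinate end of the gene (x axis, kb), one row per list. Orange marks E47 regions called at one time alone, grey marks other regions, the black bar is the gene, and marks narrower than 0.8 kb are drawn 0.8 kb wide; the 3 orange Tcf7 marks are in the E47 16 h row alone.

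The other list below the share of all genes was that of cytokine receptor and JAK-STAT genes, with 31 of 185 regions 4 h-only (16.8%, interval 11.7 to 22.9) and 8 of 172 (4.65%) 16 h-only. With regions inside genes alone it had 19.8%, beside 25.3% of all genes, and at equal list length 10.3% beside 13.7%. Both intervals then held the share of all genes. With regions within 20 kb of a gene it had 16.7%, beside 24.5%, and the interval still missed that share. Stat3, a cytokine-activated factor, had 3 of 6 4 h-only regions, Socs2, an inhibitor of cytokine signalling, 3 of 8, and Il4ra, a receptor chain for interleukins 4 and 13, 3 of 13, with no 16 h-only region at these 3 genes. The strongest, near Socs2 at chr10:95371777-95372533, had 11.9-fold at E47 4 h, 12.2-fold at GFP 4 h and 15.6-fold at GFP 16 h. Il2ra, the high-affinity interleukin 2 receptor chain, had 2 of 8 and 1 of 8. Il1rl1, the receptor for interleukin 33 and an ILC2 marker, had 1 of 8 and 1 of 9, so most of its sites were called at both times.

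**Figure D5:**
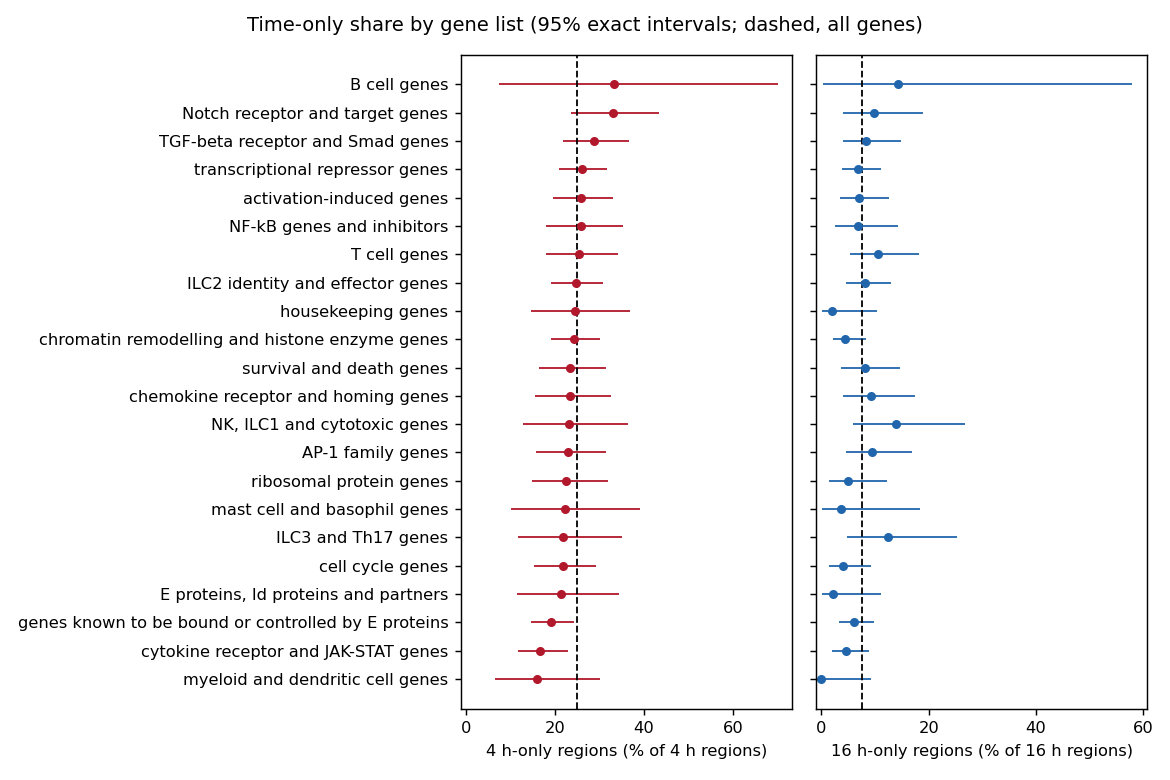
Time-only share of the regions named by each of 22 gene lists (x axis, percent; points with exact 95% intervals) at 4 h (left) and 16 h (right), with the share of all genes as a dashed line. Most intervals cross the line; at 4 h the E protein and the cytokine receptor lists lie below it.

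ILC2 identity and effector genes were close to the background, with 55 of 223 regions 4 h-only (24.7%) and 15 of 186 16 h-only (8.06%). Regions were named at 29 of the 30 genes, of which 21 had a 4 h-only region, 12 a 16 h-only region and 6 neither. Gata3, the master factor of ILC2s, had 7 of 13 and 2 of 8. Its 7 had strengths of 3.16 to 26.5 and enrichments of 2.85 to 7.12-fold, with 2 in both GFP lists, 1 in GFP 4 h alone, 1 in GFP 16 h alone and 3 in neither. Rora, a nuclear receptor needed for ILC2s, had 6 of 19 and 2 of 14, and both 16 h-only regions were in neither GFP list. Both were in the weakest decile (strengths 5.39 and 6.13), where 54.0% of 16 h-only regions were in neither. Nfil3 had 5 of 8 and 1 of 4, and Bcl11b, a factor of T cells and ILC2s, 5 of 16 and 1 of 12. All 6 Il13 regions of each time and the 1 Il17rb region of each time were shared. Il5 had a pair of 4 h-only regions, the one over its start described above and chr11:53719576-53719683, which was in neither GFP list.

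E proteins, Id proteins and their partners had 12 of 56 regions 4 h-only (21.4%) and 1 of 48 16 h-only (2.08%, interval 0.0527 to 11.1). Tcf4, which encodes the E protein E2-2, had 3 of 7 at 4 h, of which the strongest (59.2) had 13.6-fold at E47 4 h, 13.6-fold at GFP 4 h and 18.9-fold at GFP 16 h. Id3 had 2 of 7 and Id4 2 of 3, and neither had a 16 h-only region. The one 16 h-only region of the list was at Tcf12, which encodes the E protein HEB. The 2 Tcf3 and 3 Id1 regions of each time were shared. Esr1, the source of the hormone-binding part of the fusion, had 1 of 6 4 h-only.

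T cell genes had 31 of 122 regions 4 h-only (25.4%) and 11 of 104 16 h-only (10.6%), over 24 of 30 genes with a region. Zap70, a T cell receptor kinase, had 3 of 5 and 0 of 2. Cd2, an adhesion receptor, had 3 of 9 and 0 of 5, and all 3 were in neither GFP list. Their strengths ran from 3.31 to 25.6. In deciles 1 to 3 of the 4 h list, 55.8%, 36.7% and 24.6% of 4 h-only regions were in neither. Cd28, a costimulatory receptor, had 0 of 2 and 2 of 4, and both were in both GFP lists. Satb1, a chromatin organiser of thymocytes, had 3 of 8 and 1 of 7.

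Notch receptor and target genes had 31 of 94 regions 4 h-only (33.0%, interval 23.6 to 43.4) and 7 of 72 16 h-only (9.72%). Maml2, a Notch coactivator, had 9 of 24 and 2 of 19, Rbpj, the DNA-binding partner of Notch, 6 of 16 and 0 of 10, and Notch2 4 of 14 and 0 of 11. At Dll1, a Notch ligand, all 3 4 h regions were 4 h-only and in both GFP lists, with enrichments of 5.79 to 6.87-fold at E47 4 h. Its 1 region at 16 h, 97.9 kb outside the gene (chr17:15269013-15269688, 9.04-fold), was 16 h-only and in neither GFP list. TGF-beta receptor and Smad genes had 45 of 156 (28.8%) and 10 of 119 (8.40%), among them Smad3 with 7 of 20 and 3 of 16 and Skil, a Smad corepressor, with 4 of 8 and 3 of 6. Both lists' intervals held the share of all genes. For the Notch list at 4 h it no longer did so with regions within 20 kb of a gene (36.1%, beside 24.5% of all genes) or inside genes (37.5%, beside 25.3%).

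Transcriptional repressor genes had 69 of 265 regions 4 h-only (26.0%) and 14 of 207 16 h-only (6.76%). Beside Etv6, Runx2 had 9 of 21 and 0 of 13, Runx1, a core lymphoid factor, 8 of 27 and 1 of 20, and Zeb2 5 of 13 and 0 of 8. Prdm1 had 3 of 13 and 3 of 12. Of its 16 h-only regions, 2 were in neither GFP list and 1 in GFP 16 h alone.

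Markers of other cell types that such a culture could hold were counted in the same way. NK, ILC1 and cytotoxic genes had 13 of 56 (23.2%) and 7 of 50 (14.0%, interval 5.82 to 26.7), and ILC3 and Th17 genes 12 of 55 (21.8%) and 6 of 48 (12.5%, interval 4.73 to 25.2). Eomes and Ifng each had 2 regions of either kind. Myeloid and dendritic cell genes had 7 of 44 (15.9%) and 0 of 38, which allows a share of up to 9.25% by the exact interval, B cell genes 3 of 9 and 1 of 7 over 5 of 12 genes, and mast cell and basophil genes 8 of 36 and 1 of 28. Accessibility near a marker does not show its expression, and the part of other cells in these counts was not tested.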

How the data were processed

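ATAC-seq of 8 samples was available as 1 deposited peak list per group of 2. The submitters' processing notes name build mm10 and the tools Bowtie2, MACS2, DiffBind and cutadapt, with versions and settings not given in the sources used here. The lists, per the labels, are conservative sets by irreproducible discovery rate, which keeps peaks for their agreement between replicates. Each deposited line gives a score, which runs from 540 to a ceiling of 1000 in the authors' files, a ratio to local background (fold enrichment), the −log10 of p, and the −log10 of q, which was not used. The lowest deposited −log10 p was 2.00. Since −log10 p grows with depth, and depth per library was not in the files used here, it ranked regions within a list only.

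Overlapping lines were merged (131575 into 49811 at E47 4 h and 109772 into 40649 at E47 16 h), and regions of different lists were matched by 1 bp. A region carries the highest −log10 p of its lines and the fold of the line that gave it. Genes, listed starts and promoter windows came from RefSeq tables of GRCm38.p6 (21900 protein-coding genes, 79.9% with a listed start; both gene ends were used for the rest). No genome sequence was used, so motifs outside promoters and exon or intron shares were not analysed here. The members and the 22 gene lists were chosen with earlier results of these data known. Named genes were those of the 10 strongest time-only regions per time, the 5 strongest near a start, the 8 with the most time-only regions, up to 4 per gene list and time, and Tcf3, Esr1 and Id1. One gene that this rule names is not reported here. Dntt, Il13, Il17rb, Il5, Ctla4, Lck, Thsd7a and the 2 maps drawn (Etv6 and Tcf7) were chosen after their values were seen. Regions above the median of their list were called strong. Merging, overlap and naming were tested on simulated data. Exact intervals (95%, Clopper-Pearson) were taken from scipy 1.17.1, with numpy 2.4.6, pandas 2.3.3 and matplotlib 3.10.9 under Python 3.11.15.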

Additional observations from a re-analysis of the deposited data

Results flagged for a closer look

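The number of called regions moved in opposite directions in the 2 vectors. From 4 to 16 h it changed by -9162 regions in E47-ER cells (49811 to 40649) and by 10181 regions in GFP cells (42665 to 52846). Each list pools the 2 samples of its group, and the difference between vectors was not tested.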

How the results depend on the processing

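No paired analysis was possible because each list pools its samples and holds no value per sample; for the same reason no replicate could be left out. Main values were 12601 and 3141 time-only regions (4 h and 16 h), 14.8% and 14.9% near a gene start, and 34.8% and 44.2% in neither GFP list. At equal length by −log10 p, counts were 5652 and 5080 and neither-list shares 18.0% and 41.0%. At equal length by fold, counts were 7578 and 6733, near-start shares 7.27% and 26.0%, and neither-list shares 27.5% and 30.2%. Cutting all 4 lists to 40649, chosen after seeing the data, gave 5652 and 5080, with 30.5% and 58.4% in neither. Merging across 200 bp gave 8.52% and 9.53% near a start. Single summits within 150 bp gave 30839 and 9724, 20.6% and 26.2% near a start and 35.9% of 4 h-only in neither. Without regions that had one of the other time within 1000 bp, 2015 16 h-only regions were left, with 6.46% and 7.39% near a start and 30.4% of 4 h-only in neither. The neither-list share was higher for 16 h-only than for 4 h-only regions in each of these settings. The cut by −log10 p drops weak 4 h regions, which are most often in neither list, so its wider gap follows in part from the cut. Within decile 1 the order was reversed, with 55.8% of 4 h-only and 54.0% of 16 h-only regions. Among the strongest 25% there were 0 and 0 time-only regions. Gene lists above all genes at 4 h went from 7 to 11 with regions inside genes and 12 at equal length, and at 16 h from 10 to 2 with strong regions. An overlap of 50%, a −log10 p of 5 and autosomes alone left all 6 main values as they were within their intervals or 1.5 times. Of the single-gene alternatives, 102 stayed and 74 moved, and of the other alternatives 42 stayed and 30 moved. Causes were not tested.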

Other observations

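Other gene groups were set beside the share of all genes (25% 4 h-only and 7.61% 16 h-only). Activation-induced genes had 46 of 177 regions 4 h-only (26.0%) and 10 of 142 16 h-only (7.04%), with 7 of 17 at 4 h for Cd69, an early activation marker, and 7 of 21 for Nfatc1, a calcium-regulated factor. NF-kB genes had 28 of 108 (25.9%) and 6 of 88 (6.82%), and AP-1 family genes 28 of 122 (23.0%) and 10 of 105 (9.52%). Chromatin remodelling and histone enzyme genes had 60 of 246 (24.4%) and 9 of 201 (4.48%), among them Chd7, a remodelling helicase, with 8 of 27 at 4 h and 0 of 19 at 16 h. Cell cycle genes had 32 of 147 (21.8%) and 5 of 123 (4.07%), with 6 of 9 at 4 h for Rb1, the retinoblastoma protein. Survival and death genes had 31 of 133 (23.3%) and 9 of 112 (8.04%), with 7 of 16 and 0 of 10 for Bcl2l1, which encodes the survival factor Bcl-xL. Chemokine receptor and homing genes had 24 of 103 (23.3%) and 8 of 86 (9.30%). Housekeeping genes had 16 of 65 (24.6%, with 9 of the 16 at Ywhaz) and 1 of 51 (1.96%), and ribosomal protein genes 23 of 102 (22.5%) and 4 of 81 (4.94%). The intervals of all these shares held that of all genes.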
